A study of Gallus gallus with 12 samples.

Results

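The 7 genes described here encode proteins that supply, make or destroy retinoic acid in the chicken: RBP4, STRA6, ALDH1A1, ALDH1A2, ALDH1A3, CYP26A1 and CYP26B1. They were chosen by gene symbol, and every probe set that the array's annotation assigns to one of these symbols was taken. This gave 10 probe sets of the 37693 chicken probe sets tested, with 3 for ALDH1A2, 2 for CYP26B1 and 1 for each other gene.

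Transcript levels were measured on Affymetrix GeneChip Chicken Genome Arrays in 12 White Leghorn RNA samples, 3 in each of 4 groups, with 1 array per sample and about 5 µg of total RNA labelled for each. PGC are primordial germ cells, the precursors of sperm and eggs, taken from embryonic gonads at 6.5 days by a magnetic sort, with 270000 cells and the gonads of 100 embryos of both sexes per sample. GSC, gonadal stromal cells, are somatic cells of such gonads obtained by the same kind of sort, with 9000000 cells and 100 embryos per sample. CEF are embryonic fibroblasts of the same age grown in culture to passage 2, with 6000000 cells and 5 embryos per sample; the study design gives the embryonic body as their source and the sample labels give a muscular area. The fourth group is blastoderm, the dissociated cells of 5 freshly laid eggs per sample (day 0, stage X), with 530000 cells. No group carries a genetic change or a treatment beyond culture in CEF. Which antibody the sort used is not stated in the labels, and sex was not separated in the gonadal groups. The study set germ cells against the 3 other groups, and for the retinoic acid genes this asks where the hormone could be made and where it could be broken down.

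Retinoic acid is made from vitamin A. Retinol reaches cells bound to a carrier in the blood, enters them through a receptor, and is oxidised first to retinaldehyde and then, by the ALDH1A dehydrogenases, to retinoic acid, which binds nuclear receptors; the CYP26 enzymes oxidise it to products with little activity. In vertebrate gonads retinoic acid is known for bringing germ cells into meiosis, and in the mouse fetal testis CYP26B1 is known for holding that step back.

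Levels are log2 array signals. Background was set at 3.61, below which 99% of the array's 746 viral and reporter probe sets lie. Median signals of the arrays lay between 3.45 and 3.60, and each array correlated at 0.977 to 0.995 with the mean of its own group, the lowest being PGC replicate 3. That array also stood closest to GSC among the PGC arrays, with a correlation of 0.966 to the GSC mean, against 0.935 and 0.944 for PGC replicates 1 and 2. The difference between 3′ and 5′ probe sets of actin and GAPDH, a measure of RNA integrity, ran from 0.07 to 0.35 in PGC, from -0.09 to 0.05 in GSC, from 0.02 to 0.67 in CEF and from 0.37 to 0.82 in blastoderm. The poly-A control probe sets averaged 6.71 to 7.26 in PGC and 5.79 to 6.73 in CEF. They were lower in GSC (4.16 to 5.29) and blastoderm (4.01 to 5.38). The BioB hybridization control was lowest in GSC replicate 3 (5.10). It gave 6.05 and 5.47 in GSC replicates 1 and 2 and 6.03 to 6.65 in PGC. Whether any of these differences plays a part in the values below was not tested.

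ALDH1A2, the main retinoic acid-forming enzyme of the early embryo, was far higher in both gonadal groups than in CEF or blastoderm and was highest in GSC. ALDH1A3 and the retinol receptor STRA6 were likewise higher in both gonadal groups, ALDH1A1 was highest in PGC, and the degrading enzyme CYP26A1 was high in both gonadal groups and within background in CEF. The other degrading enzyme, CYP26B1, was highest in blastoderm. By group mean, 8 of the 10 probe sets were above background in PGC and likewise 8 in GSC, against 4 for CEF and 6 for blastoderm. A higher signal in one group of bulk samples can come from more cells that carry the transcript or from more transcript per cell, and these cannot be told apart.

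**Figure D1:**
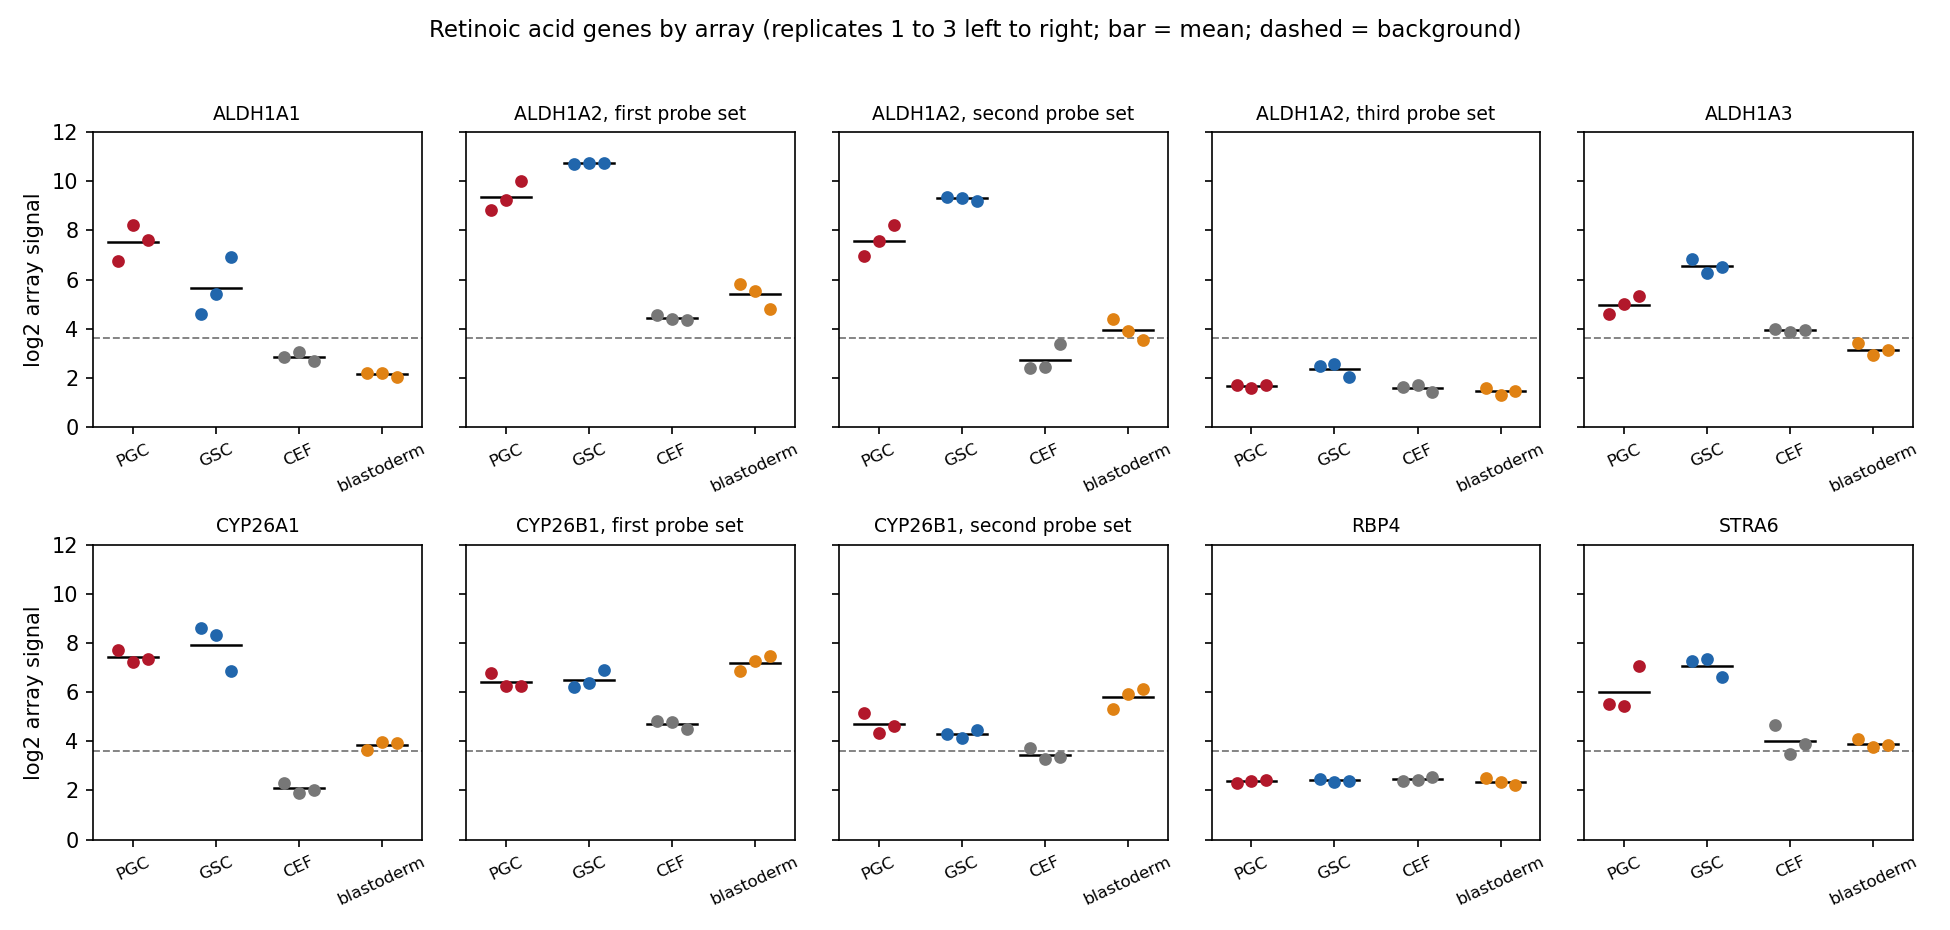
Log2 array signal (vertical axes) of the 10 probe sets in PGC, GSC, CEF and blastoderm, with 1 point per array, a bar at the group mean and a dashed line at the background of 3.61. ALDH1A2 reached 10.73 to 10.76 in GSC by its brightest probe set, while RBP4 and the third ALDH1A2 probe set stayed below the dashed line on all 12 arrays.

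RBP4, the symbol of the blood carrier of retinol, was not detected by the probe set annotated with it. Its probe set (gene 396454) gave 2.30, 2.39 and 2.44 in PGC, 2.48, 2.35 and 2.40 in GSC, 2.38, 2.44 and 2.55 in CEF, and 2.49, 2.36 and 2.23 in blastoderm. All 12 values were within background, and none of the 6 differences between groups passed the limma test (largest difference 0.10, adjusted p = 0.572). In the RefSeq annotation this gene carries the synonym RBP4B, and another chicken gene, RBP4A (gene 396166), carries the synonym RBP4. The annotation used does not settle which of them encodes the blood carrier. RBP4A was looked at only after this was seen and is not one of the 7 genes. Its probe set gave 2.80, 3.24 and 2.78 in PGC, 3.79, 3.10 and 3.18 in GSC and 2.76, 2.79 and 3.30 in CEF, against 8.38, 7.99 and 7.86 in blastoderm. The blastoderm arrays thus stood clear of all others, and 1 GSC array exceeded background. RBP4A was at least 22.1-fold lower in PGC than in blastoderm (limma, log2 difference -5.14 ± 0.24 (SE), adjusted p = 1.81e-10) and at least 22.1-fold lower in CEF. "At least" here and below means that the lower group lay within background on all its arrays, so that its background level stands in for it. An adjusted p beside such a fold is that of the limma test on the measured values, not of the fold itself.

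STRA6, the cell-surface receptor that takes up retinol from its carrier, was measured by 1 probe set (gene 415301). It gave 5.52, 5.45 and 7.08 in PGC, 7.27, 7.33 and 6.62 in GSC, 4.67, 3.47 and 3.89 in CEF, and 4.08, 3.77 and 3.84 in blastoderm. Both gonadal groups lay above all CEF and blastoderm arrays. The PGC and GSC ranges overlapped because PGC replicate 3 lay above GSC replicate 3, though below the other GSC arrays. STRA6 was 4.03-fold higher in PGC than in CEF (log2 difference 2.01 ± 0.38 (SE), adjusted p = 0.000495) and 4.35-fold higher in PGC than in blastoderm (adjusted p = 0.000303). In GSC it was 8.37-fold higher than in CEF (adjusted p = 8.67e-06) and 9.04-fold higher than in blastoderm (adjusted p = 4.26e-06). PGC and GSC differed by -1.06, with a 95% interval from -1.87 to -0.25 and an adjusted p of 0.0599, which missed the threshold of 0.05. The result lay near the threshold and changed with the arrays and settings used. Without PGC replicate 3 the difference was -1.59 with a limma adjusted p of 0.000741. Without CEF replicate 1 the adjusted p was 0.0424, and other settings that gave a call are listed in the last section. CEF and blastoderm differed by 0.11, with an interval from -0.70 to 0.92 (adjusted p = 0.861).

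ALDH1A1 is a retinaldehyde dehydrogenase known from the dorsal retina and from many adult epithelia. Its probe set (gene 395264) gave 6.74, 8.23 and 7.63 in PGC, 4.60, 5.43 and 6.94 in GSC, 2.83, 3.07 and 2.68 in CEF, and 2.20, 2.20 and 2.02 in blastoderm. PGC had the highest mean, CEF and blastoderm were within background on every array, and PGC replicate 1 lay below GSC replicate 3. The mean was 7.53 ± 0.75 in PGC and 5.65 ± 1.18 in GSC (SD, n = 3 each), a 3.67-fold difference (1.88 ± 0.44 (SE), limma adjusted p = 0.00553). GSC replicate 3 weighed on it: without that array the log2 difference between PGC and GSC was 2.52, that between GSC and CEF was 2.16 and that between GSC and blastoderm was 2.87, against 2.80 and 3.51 for the last pair of comparisons with all arrays. ALDH1A1 was at least 15.2-fold higher in PGC than in CEF (adjusted p = 3.23e-07) and than in blastoderm (adjusted p = 7.61e-08). In GSC it was at least 4.13-fold higher than in CEF (adjusted p = 0.000103) and than in blastoderm (adjusted p = 6.97e-06). It was the only one of the 7 genes with a probe set called higher in PGC than in GSC.

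ALDH1A2, also called RALDH2, was measured by 3 probe sets (gene 395844). The first and brightest gave 8.81, 9.22 and 10.02 in PGC, 10.73, 10.76 and 10.73 in GSC, 4.57, 4.38 and 4.37 in CEF, and 5.83, 5.53 and 4.81 in blastoderm. No 2 groups overlapped, the 3 GSC arrays were nearly equal, and the PGC arrays spread over more than 1 log2 unit with replicate 3 closest to GSC. The transcript was 2.62-fold lower in PGC than in GSC (-1.39 ± 0.27 (SE), adjusted p = 0.0016). It was 30.1-fold higher in PGC than in CEF (adjusted p = 7.01e-10) and 15.6-fold higher in PGC than in blastoderm (adjusted p = 1.21e-08). GSC stood 78.7-fold above CEF (adjusted p = 5.25e-11) and 40.7-fold above blastoderm (adjusted p = 3.28e-10). CEF was 1.93-fold lower than blastoderm (adjusted p = 0.0107), a call lost without blastoderm replicate 1 (adjusted p = 0.0611).

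The second ALDH1A2 probe set gave 6.94, 7.59 and 8.21 in PGC, 9.37, 9.33 and 9.21 in GSC, 2.38, 2.44 and 3.38 in CEF, and 4.40, 3.92 and 3.52 in blastoderm. It put the groups in the same order as the first, with GSC highest and CEF lowest, and each of its 6 differences passed the test in the same direction. PGC was 3.30-fold lower than GSC (adjusted p = 0.00104), at least 15.7-fold higher than CEF and 12.4-fold higher than blastoderm. GSC was at least 51.8-fold higher than CEF and 40.9-fold higher than blastoderm. The third stayed within background on all 12 arrays, at 1.28 to 2.56. Its calls (lower in PGC than in GSC, higher in GSC than in CEF and in blastoderm) therefore compare values that have no level above background, and no fold is given.

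ALDH1A3, a retinaldehyde dehydrogenase best known from the ventral retina and the nasal region, was measured by 1 probe set (gene 395389), whose suffix _s_at marks probes that can match more than 1 transcript. It gave 4.60, 5.01 and 5.32 in PGC, 6.85, 6.26 and 6.53 in GSC, 3.98, 3.87 and 3.94 in CEF, and 3.41, 2.92 and 3.11 in blastoderm. The 4 groups did not overlap, and blastoderm was within background on all 3 arrays. PGC was 2.97-fold lower than GSC (-1.57, adjusted p = 0.000112), 2.06-fold higher than CEF (adjusted p = 0.00145) and at least 2.58-fold higher than blastoderm (adjusted p = 6.54e-06). GSC was 6.13-fold higher than CEF (adjusted p = 1.34e-07) and at least 7.66-fold higher than blastoderm (adjusted p = 5.63e-09). CEF, just above background, was at least 1.25-fold higher than blastoderm. The measured log2 difference was 0.79 (limma adjusted p = 0.0099), a call lost without blastoderm replicate 2 (adjusted p = 0.0576). The 3 dehydrogenases thus differed in their order between the gonadal groups: ALDH1A1 was higher in PGC, and ALDH1A2 and ALDH1A3 were lower in PGC than in GSC.

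CYP26A1, a cytochrome P450 that hydroxylates retinoic acid and is itself known to be induced by it, was measured by 1 probe set (gene 408183). It gave 7.70, 7.24 and 7.36 in PGC, 8.60, 8.33 and 6.86 in GSC, 2.31, 1.89 and 2.04 in CEF, and 3.63, 3.98 and 3.94 in blastoderm. The gonadal groups overlapped each other and stood far above the others, CEF was within background on all arrays, and blastoderm was barely above it. CYP26A1 was at least 14.2-fold higher in PGC than in CEF (5.36 ± 0.34 (SE), adjusted p = 2.67e-09) and 3.58 log2 units higher in PGC than in blastoderm (adjusted p = 3.4e-07). In GSC it was at least 20.0-fold higher than in CEF (adjusted p = 1.16e-09) and 16.9-fold higher than in blastoderm (adjusted p = 6.63e-08). PGC and GSC differed by -0.50, with a 95% interval from -1.21 to 0.22 (adjusted p = 0.351). GSC replicate 3 weighed on this difference, as it did for ALDH1A1, and here the call changed. Without that array the difference was -1.03 with a limma adjusted p of 0.00653. CEF was at least 1.18-fold lower than blastoderm. The measured log2 difference, mostly within background, was -1.77 (limma adjusted p = 0.000397). That call was lost with offsets of 16 and 64 added to the linear signals (adjusted p = 0.143 and 0.583).

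CYP26B1, the second retinoic acid hydroxylase, was measured by 2 probe sets (gene 428809). The first and brighter gave 6.78, 6.25 and 6.24 in PGC, 6.21, 6.36 and 6.89 in GSC, 4.82, 4.77 and 4.49 in CEF, and 6.85, 7.29 and 7.46 in blastoderm. CEF lay below all other groups and was still above background, PGC and GSC overlapped, and blastoderm had the highest mean. PGC was 3.32-fold higher than CEF (1.73 ± 0.24 (SE), adjusted p = 1.9e-05), GSC was 3.47-fold higher than CEF (adjusted p = 1.55e-05), and CEF was 5.68-fold lower than blastoderm (adjusted p = 2.11e-07). PGC was 1.71-fold lower than blastoderm (adjusted p = 0.0159) and GSC 1.64-fold lower (adjusted p = 0.0256). Both of these calls rest on single arrays. The call for PGC was lost without PGC replicate 2 (adjusted p = 0.0603), blastoderm replicate 2 (0.0579) or blastoderm replicate 3 (0.0813). The call for GSC was lost without GSC replicate 1 (0.117), GSC replicate 2 (0.0923), blastoderm replicate 2 (0.0843) or blastoderm replicate 3 (0.119).

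The second, dimmer CYP26B1 probe set gave 5.16, 4.32 and 4.63 in PGC, 4.31, 4.13 and 4.48 in GSC, 3.74, 3.29 and 3.35 in CEF, and 5.33, 5.94 and 6.13 in blastoderm. Here no gonadal array reached the blastoderm range. PGC was 2.14-fold lower than blastoderm (adjusted p = 0.00253), GSC was 2.82-fold lower (adjusted p = 0.000159) and CEF was 5.07-fold lower (adjusted p = 1.11e-06). PGC was 2.37-fold higher than CEF (adjusted p = 0.000933). GSC was 1.80-fold higher than CEF (adjusted p = 0.0163), a call lost without GSC replicate 3 (0.0604), CEF replicate 2 (0.0659) or CEF replicate 3 (0.0508). Neither probe set separated PGC from GSC, with differences of -0.07 (95% interval -0.57 to 0.44) and 0.40 (-0.14 to 0.94). CYP26A1 and CYP26B1 therefore differed in blastoderm: CYP26A1 was higher in both gonadal groups than in blastoderm, and CYP26B1 was lower in both.

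**Figure D2:**
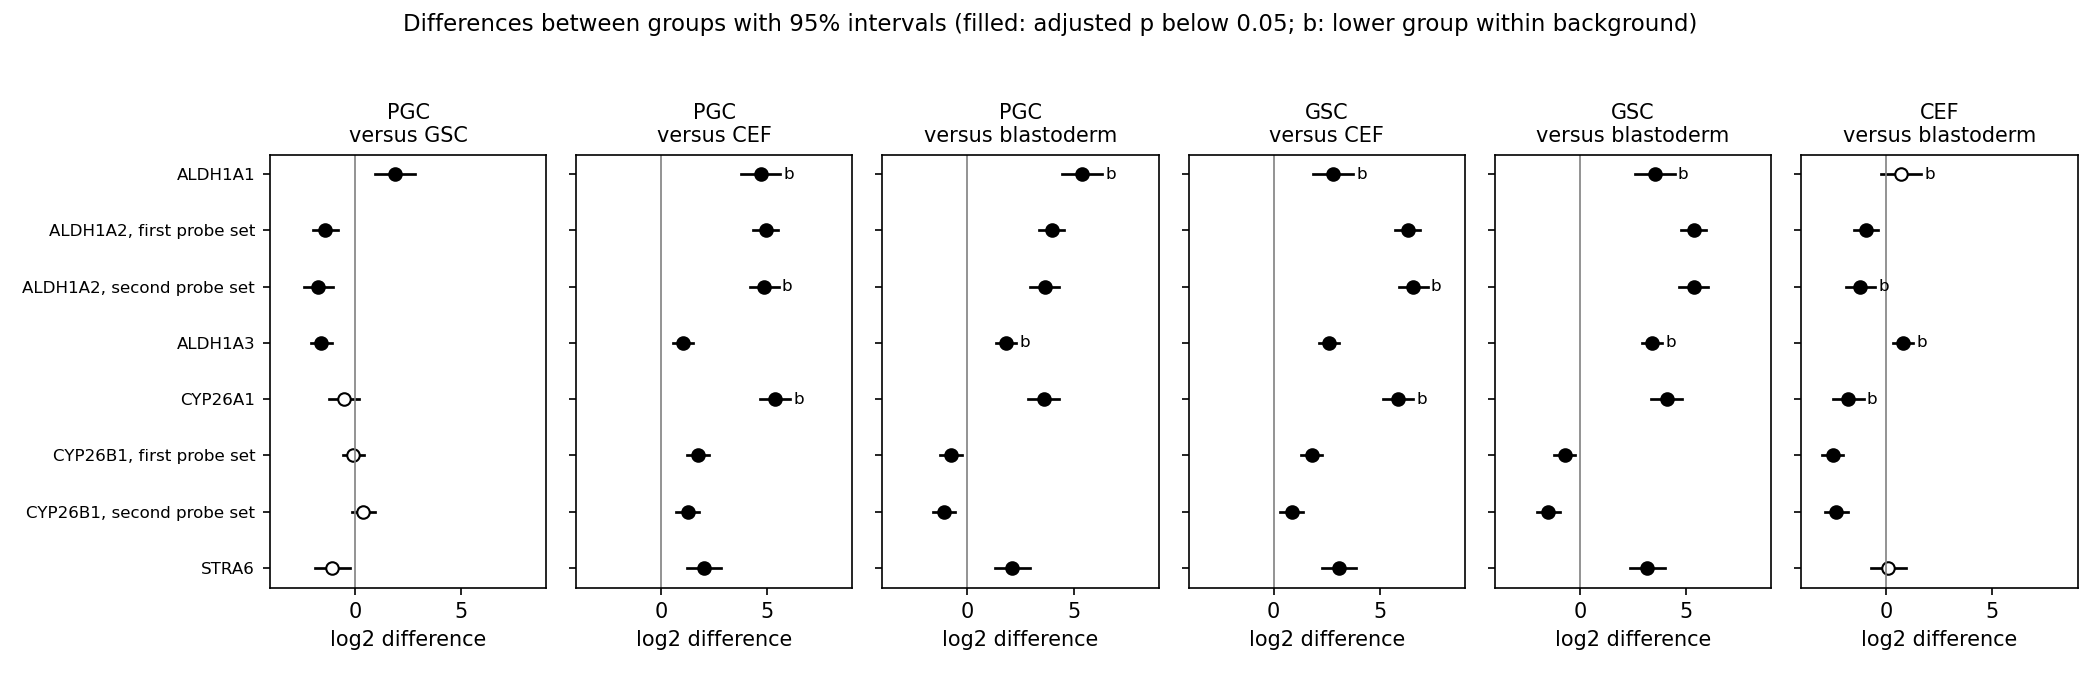
Log2 differences between groups (horizontal axes) with 95% intervals for the 8 probe sets above background in at least 1 group, in 6 panels with the first-named group minus the second. Filled points passed an adjusted p of 0.05, and b marks a lower group within background on all arrays; for GSC over CEF the first ALDH1A2 probe set lay at 6.30 and the second at 6.57, and CYP26B1 lay below 0 in the 3 panels against blastoderm.

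Counted over the 10 probe sets, 1 was higher and 4 were lower in PGC than in GSC, where 21.9% of all probe sets were called (10.8% higher, 11.1% lower). One of the 4 is the ALDH1A2 probe set within background. Against CEF, 8 were higher and 0 lower in PGC, beside 38.6% of all called (19.6% higher, 19.0% lower), and 9 were higher and 0 lower in GSC, beside 33.8% (17.8% higher). Against blastoderm, 6 were higher and 2 lower in PGC, beside 37.3% of all (18.2% higher, 19.1% lower), and 7 were higher and 2 lower in GSC, beside 37.1% (18.5% higher, 18.6% lower). In CEF, 1 was higher and 5 were lower than in blastoderm, beside 38.8% (18.2% higher, 20.6% lower). The shares called higher in the gonadal groups over CEF and blastoderm were thus above those of all probe sets. With 1 probe set per named gene, 22.3% to 27.7% were called higher in these comparisons. The genes were chosen with earlier results of these data known, so these shares are a description and not a test. The ALDH1A2 probe set within background is also among those called higher in GSC over CEF and over blastoderm. The 10 probe sets stand for 7 genes, so a gene with several probe sets counts more than once. Of all 37693 probe sets, 22304 were above background in any group, against 8 of these 10. The median difference of the 10 probe sets was -0.60 for PGC over GSC, 1.87 for PGC over CEF, 1.98 for PGC over blastoderm, 2.71 for GSC over CEF, 3.29 for GSC over blastoderm and -0.43 for CEF over blastoderm, while the medians over all probe sets lay between -0.11 and -0.02. These 6 comparisons share groups and are not independent of each other. With 16 added to every linear signal, the fold of 27 of the 45 calls among the 10 probe sets moved by over 1.5 times and 5 of the calls were lost, so the folds depend on how background is handled.

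Markers of other cell types also differed between the groups. Of 11 genes chosen as markers of gonadal somatic cells, 10 had a probe set (WT1 had none), and all 10 were above background in PGC as well as in GSC, against 2 in CEF and 6 in blastoderm. Among them, NR5A1, a transcription factor of steroid-forming cells, averaged 6.47 in PGC, 8.13 in GSC and 2.81 in CEF, against 3.99 in blastoderm. Their summed signal, as log2, was 11.21, 12.11 and 12.84 in PGC, 12.90, 12.93 and 13.37 in GSC, 6.79 to 6.94 in CEF and 7.81 to 8.48 in blastoderm. PGC replicate 3, the PGC array with the highest ALDH1A2, ALDH1A3 and STRA6, also had the highest sum in its group. CYP26A1 did not follow the sum and was highest in PGC replicate 1 (7.70), where the PGC sum was lowest. In GSC, replicate 3 had the highest sum but the lowest CYP26A1 (6.86) and STRA6 (6.62). It also had the lowest median over the list (8.10, against 8.24 and 8.22 in replicates 1 and 2). By gene, that array was highest in GSC for AMH (12.40), CYP17A1 (10.93), CYP19A1 (10.63), HSD3B1 (9.29) and STAR (6.49). It was lowest for NR5A1 (7.97), LHX9 (8.23) and EMX2 (7.16), and between the other GSC arrays for GATA4 and FOXL2. The part of gonadal somatic RNA in the PGC levels of these genes was not tested.

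Germ cell markers ran the other way. All 7 measured ones were called higher in PGC than in each other group. Of all 13008 named genes, 16.8% were called higher and 13.5% lower in PGC than in GSC. Against CEF 27.7% were higher in PGC, and against blastoderm 26.3%. The germ cell sums were 12.49, 12.58 and 11.58 in PGC and 8.30, 8.14 and 8.22 in GSC. They were 6.22 to 6.76 in CEF and 8.08 to 8.22 in blastoderm, and PGC replicate 3 was lowest in its group. Of 13 genes chosen as markers of kidney tubules, an organ that lies against the gonad at this age, 10 had a probe set, and 9 were above background in PGC and 8 in GSC, against 3 in CEF and 6 in blastoderm. Their sums were 10.52, 11.47 and 11.24 in PGC, 10.05, 10.01 and 9.72 in GSC, 7.57 to 7.997 in CEF and 7.78 to 7.92 in blastoderm. Between PGC and GSC, 6 of these 10 were higher and 2 lower, LRP2 averaging 7.55 in PGC and 3.95 in GSC. ALDH1A1 was lowest in PGC replicate 1 and highest in replicate 2, as were these sums. The sums of the liver and yolk sac markers described below ran in the same order in PGC, at 11.08, 11.89 and 11.82. In GSC the array with the highest ALDH1A1, replicate 3, had the lowest kidney sum. It also had the highest median over the list (5.22, against 4.87 and 5.06 in replicates 1 and 2). By gene, that array was highest in GSC for LRP2 (4.41), CUBN (5.71), SLC3A1 (4.40), GATM (5.07) and SLC34A1 (6.83). It was lowest for UMOD (6.60), PAX2 (5.36) and PODXL (8.80). PODXL, also a gene of podocytes, was brightest in the sum, and HNF4A and LHX1 were within background in GSC. Whether kidney RNA has a part in ALDH1A1 was not tested. Fibroblast and matrix markers summed to 11.57 to 12.78 in PGC, 13.28 to 13.51 in GSC, 14.74 to 15.05 in CEF and 8.05 to 8.74 in blastoderm. All 4 measured erythroid markers were above background in both gonadal groups, with sums of 13.51 to 13.95 in PGC, 13.93 to 14.29 in GSC, 5.92 to 6.15 in CEF and 8.70 to 9.37 in blastoderm. The 7 measured endothelial markers summed to 7.9997, 8.83 and 9.57 in PGC, 9.65 to 10.04 in GSC, 6.35 to 6.55 in CEF and 8.81 to 9.38 in blastoderm, with PGC replicate 3 again closest to GSC. The part of blood and vessel RNA in the 7 genes was not tested.

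**Figure D3:**
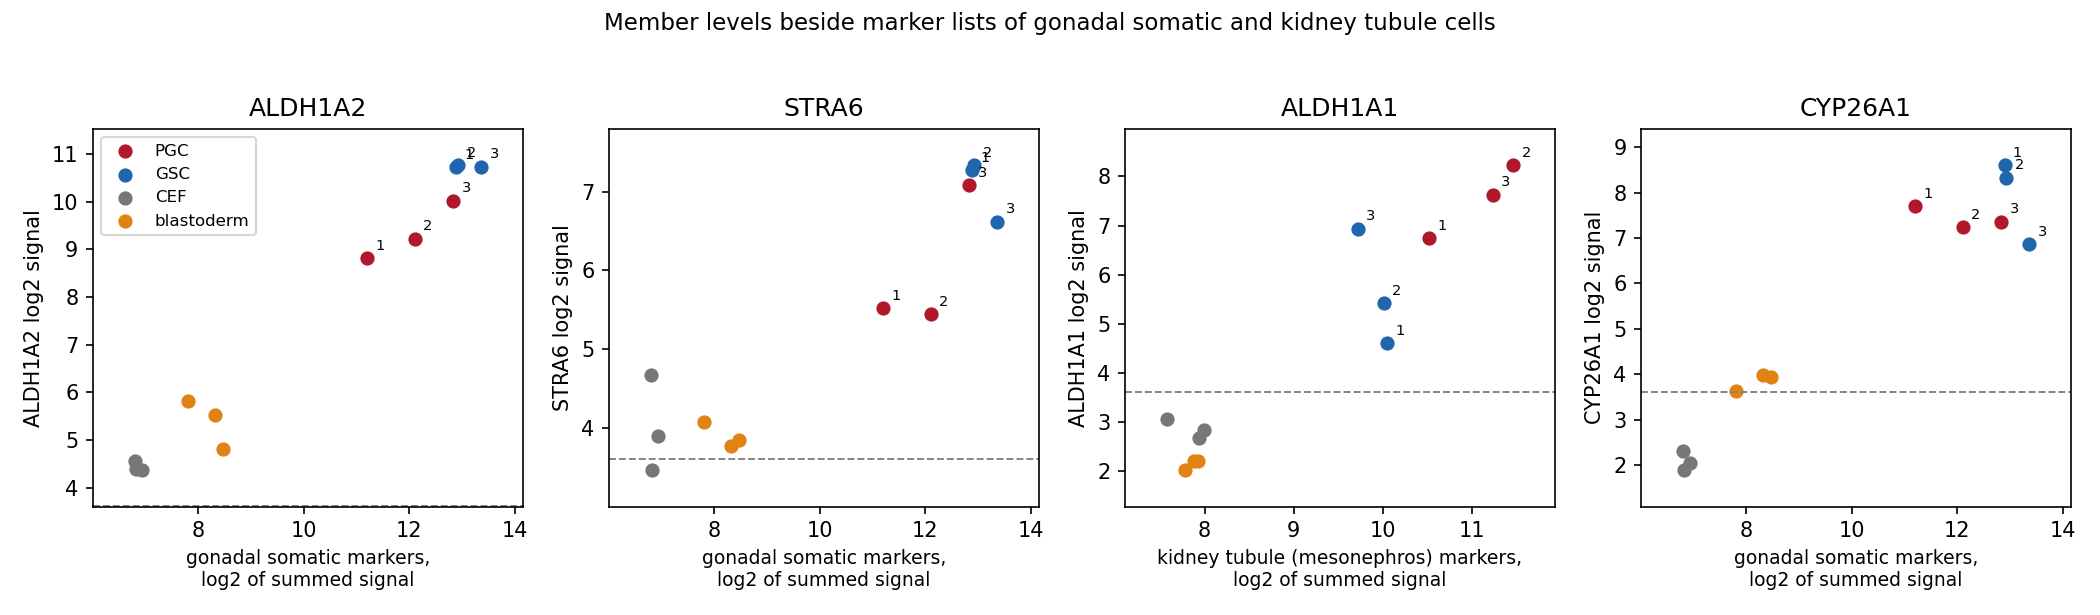
Log2 signal of ALDH1A2, STRA6, ALDH1A1 and CYP26A1 (vertical axes; brightest probe set of each) against the log2 summed signal of marker lists for gonadal somatic or kidney tubule cells (horizontal axes), with 1 point per array and replicate numbers beside the PGC and GSC points. PGC replicate 3, with a gonadal somatic sum of 12.84, lies next to the GSC arrays for ALDH1A2 and STRA6.

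The wider pathway was read from 4 lists with 73 genes in all, of which 56 had a probe set, each gene being read from the probe set brightest on average. Over these 56 genes, 12 were higher and 18 lower in PGC than in GSC, where 30.2% of all 13008 named genes were called (16.8% higher, 13.5% lower). Against CEF, 19 were higher and 11 lower in PGC, beside 49.6% of named genes (27.7% higher, 22.0% lower), and 18 were higher and 11 lower in GSC, beside 42.5% (22.3% higher, 20.2% lower). Against blastoderm, 23 were higher and 8 lower in PGC, beside 49.7% (26.3% higher, 23.5% lower), 29 were higher and 8 lower in GSC, beside 50.2% (24.8% higher, 25.4% lower), and 20 were higher and 13 lower in CEF, beside 51.1% (24.0% higher, 27.2% lower). These counts describe the lists, and no test of the lists against other genes was made. The same shares of named genes stand beside the counts of the single lists below. Their median difference was -0.24 for PGC over GSC, 0.00 for PGC over CEF, 0.22 for PGC over blastoderm, 0.16 for GSC over CEF, 0.51 for GSC over blastoderm and 0.21 for CEF over blastoderm, beside medians from -0.07 to -0.01 over all named genes.

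Of the genes that supply, store and oxidise retinol, 21 of 29 were measured. Between PGC and GSC, 5 were higher and 4 lower, and between PGC and CEF 8 were higher and 3 lower. RDH10, which makes the retinaldehyde that the ALDH1A enzymes use, gave 7.42, 7.75 and 7.77 in PGC, 9.14, 8.67 and 8.11 in GSC, 6.67, 6.23 and 6.75 in CEF, and 7.75, 7.52 and 7.61 in blastoderm. It was highest in GSC without overlap, as ALDH1A2 was: PGC was 1.99-fold lower than GSC (adjusted p = 0.00512), GSC was 4.25-fold higher than CEF (adjusted p = 2.28e-06) and 2.02-fold higher than blastoderm (adjusted p = 0.00207). PGC and blastoderm differed by 0.02 (adjusted p = 0.95). DHRS3, which turns retinaldehyde back into retinol, averaged 6.38 in PGC, 7.25 in GSC and 5.78 in CEF, against 7.93 in blastoderm. Its mean was highest in blastoderm, above PGC (-1.54, adjusted p = 0.000302) and CEF (-2.15, adjusted p = 8.1e-06). GSC was not called lower than blastoderm (-0.68, limma adjusted p = 0.0682), though it was under 5 other settings. The DHRS3 call between PGC and GSC (-0.87, adjusted p = 0.0341) was lost without any of PGC replicates 1 and 2 or GSC replicates 1 and 2 (adjusted p from 0.126 to 0.166).

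RBP5, a cellular retinol-binding protein, gave 7.35, 7.53 and 8.09 in PGC, 8.42, 8.15 and 7.95 in GSC, 3.59, 4.17 and 3.20 in CEF, and 5.63, 5.97 and 5.80 in blastoderm. It was 16.01-fold higher in PGC than in CEF (adjusted p = 3.31e-09) and 23.0-fold higher in GSC than in CEF (adjusted p = 9.58e-10), and PGC and GSC overlapped (-0.52, adjusted p = 0.175). Transthyretin (TTR), which carries the RBP4 complex and thyroid hormone in blood, gave 9.27, 10.07 and 10.06 in PGC, 5.04, 5.59 and 5.95 in GSC, 6.88, 5.25 and 7.49 in CEF, and 3.95, 3.84 and 3.88 in blastoderm. PGC stood above every other array: TTR was 19.3-fold higher in PGC than in GSC (adjusted p = 2.24e-06), 9.55-fold higher than in CEF and 60.1-fold higher than in blastoderm. Its other probe set lay within background on all arrays (1.62 to 1.97) and was called in none of these comparisons. TTR is also on the list of liver and yolk sac markers used here, of which 4 of 11 measured were higher and 1 lower in PGC than in GSC, with sums of 11.08 to 11.89 in PGC, 10.60 to 10.79 in GSC, 8.58 to 9.16 in CEF and 10.83 to 11.12 in blastoderm. TTR itself is among the 4 and enters these sums, so neither is separate from it. The part of liver or yolk sac RNA in TTR was not tested. AKR1B10, an aldo-keto reductase that reduces retinaldehyde, averaged 3.80 in PGC, 6.21 in GSC and 7.93 in CEF, against 3.15 in blastoderm. It was lower in PGC than in GSC (-2.41, adjusted p = 3.3e-05), lower in GSC than in CEF (-1.72, adjusted p = 0.000306) and at least 20.0-fold higher in CEF than in blastoderm. LRAT, which stores retinol as esters, stayed within background, with group means from 1.73 to 1.92.

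In the list of intracellular binding and breakdown, 6 of 7 genes were measured; 5 were higher and 1 was lower in PGC than in GSC, and 4 were higher and 0 lower in PGC than in CEF. CYP26C1, the third member of the CYP26 family, gave 5.31, 4.47 and 5.13 in PGC, 3.50, 3.70 and 3.38 in GSC, 3.05, 2.80 and 3.12 in CEF, and 2.97, 2.85 and 2.97 in blastoderm. It was above background on all PGC arrays and on 1 other, a GSC array: PGC was 2.72-fold higher than GSC (1.44 ± 0.21 (SE), adjusted p = 0.000116) and at least 2.57-fold higher than CEF and than blastoderm. CRABP1, which binds retinoic acid in the cytoplasm, gave 5.90, 5.12 and 4.81 in PGC, 3.92, 3.20 and 2.80 in GSC, 2.77, 3.35 and 2.99 in CEF, and 4.47, 4.68 and 4.29 in blastoderm. PGC lay above all other arrays, 3.91-fold over GSC (adjusted p = 0.000184) and at least 3.18-fold over CEF (adjusted p = 1.47e-05). Its difference from blastoderm was 0.79 with an adjusted p of 0.0458, lost without PGC replicate 1 (0.225) and under 10 other settings. GSC was 2.25-fold lower than blastoderm (adjusted p = 0.00474). FABP5, a fatty acid carrier that also binds retinoic acid, averaged 4.89 in PGC, 3.54 in GSC and 5.15 in CEF, against 3.32 in blastoderm, and was lower in GSC than in CEF (-1.61, adjusted p = 0.00701). Of the 3 CYP26 genes, only CYP26C1 was called higher in PGC than in GSC, and its difference was not tested against those of the other two.

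Among receptors and co-regulators, 13 of 17 were measured, and 0 were higher and 6 lower in PGC than in GSC. Over all named genes, 16.8% were higher and 13.5% lower. Among the 6, the calls of RARB and RXRA were each lost under several settings, given below. RARB, the retinoic acid receptor known to be induced by its own ligand, gave 6.98, 7.14 and 6.64 in PGC, 7.92, 7.79 and 7.47 in GSC, 5.20, 4.02 and 5.06 in CEF, and 4.21, 4.29 and 3.92 in blastoderm. Both gonadal groups lay above all CEF and blastoderm arrays. RARB was 4.46-fold higher in PGC than in CEF (adjusted p = 9.18e-06) and 6.86-fold higher in PGC than in blastoderm (adjusted p = 6.06e-07). It was 7.80-fold higher in GSC than in CEF (adjusted p = 3.11e-07) and 3.58 log2 units higher in GSC than in blastoderm (adjusted p = 2.85e-08). Its call between PGC and GSC (-0.81, adjusted p = 0.0454) was lost without any 1 of 9 arrays: without an array of PGC, GSC or blastoderm the adjusted p was 0.0525 to 0.14. The 2 other RARB probe sets were both called lower in PGC than in GSC, but 1 of them lay within background on all arrays. RARA, the receptor found in most tissues, averaged 3.09 in PGC, 2.95 in GSC and 3.87 in CEF, against 4.49 in blastoderm. It ran the other way from RARB, at least 1.85-fold lower in PGC and in GSC than in blastoderm. The measured log2 differences were -1.40 for PGC (limma adjusted p = 0.00124) and -1.55 for GSC (adjusted p = 0.00049).

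The partner receptors and an orphan receptor added further patterns. RXRG, a partner of the retinoic acid receptors, averaged 2.79 in PGC, 2.96 in GSC and 6.05 in CEF, against 3.20 in blastoderm, and was within background outside CEF: it was at least 5.43-fold lower in PGC and in GSC than in CEF. RXRA averaged 4.09 in PGC, 4.84 in GSC and 5.35 in CEF, against 4.14 in blastoderm, and was lower in PGC than in CEF (-1.26, adjusted p = 0.000648). Its call between PGC and GSC (-0.76, limma adjusted p = 0.0376) was lost under 9 settings, the minimum change of 2-fold aside. Neither of its 2 other probe sets repeated that call. NR2F2, an orphan receptor known as a retinoic acid-responsive gene of stromal cells, gave 7.16, 7.73 and 8.92 in PGC, 9.63, 9.51 and 9.48 in GSC, 5.98, 6.80 and 6.84 in CEF, and 3.36, 3.09 and 3.55 in blastoderm. It was lower in PGC than in GSC (-1.60, adjusted p = 0.00272) and at least 61.0-fold higher in GSC than in blastoderm, where it lay within background. PPARD, a nuclear receptor that FABP5 can supply with ligand, averaged 5.69 in PGC, 6.27 in GSC and 7.05 in CEF, against 7.75 in blastoderm, and was lower in PGC than in blastoderm (-2.06).

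Genes known to respond to retinoic acid (16 of 20 measured) went in both directions. In PGC over GSC, 2 were higher and 7 lower, and in GSC over blastoderm 10 were higher and 2 lower. Among the 7, the calls of TGM2 and TNFAIP2 were each lost under some settings, given below. STRA8, the retinoic acid-induced gene of germ cells entering meiosis, gave 4.36, 4.34 and 3.41 in PGC, 2.19, 2.01 and 2.28 in GSC, 2.26, 2.65 and 2.50 in CEF, and 2.36, 1.98 and 2.22 in blastoderm. Only PGC replicates 1 and 2 were above background, and PGC was at least 1.34-fold higher than GSC (1.88 ± 0.21 (SE), adjusted p = 1.22e-05), than CEF (adjusted p = 2.06e-05) and than blastoderm. HOXD4, a patterning gene, was the other response gene called higher in PGC than in GSC, at 4.86, 5.27 and 4.80 in PGC against 2.32, 2.15 and 2.35 in GSC, at least 2.58-fold (adjusted p = 8.95e-08); its other probe set lay within background on all arrays and did not repeat that call. MEIS1, a homeodomain partner of HOX proteins, was lower in PGC than in GSC (-2.37, adjusted p = 0.000246), as was HOXA4 (-1.96, adjusted p = 7.63e-05). For MEIS1 the PGC arrays gave 3.13, 3.26 and 4.94, with replicate 3 closest to the 6.30, 6.40 and 5.75 of GSC.

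TGM2, a transglutaminase induced by retinoic acid, gave 5.95, 5.71 and 7.003 in PGC, 7.46, 7.10 and 6.95 in GSC, 3.05, 3.52 and 3.16 in CEF, and 5.45, 6.09 and 6.15 in blastoderm. It was within background in CEF alone, at least 6.12-fold lower there than in PGC (adjusted p = 7.02e-07) and at least 11.8-fold lower there than in GSC (adjusted p = 3.51e-08). PGC and GSC overlapped. The TGM2 call between them (-0.95, limma adjusted p = 0.0324) was lost under 5 settings, the minimum change of 2-fold aside. TNFAIP2, a gene induced by retinoic acid in human leukemia cells, was instead highest in CEF, with means of 4.21 in PGC, 5.45 in GSC and 6.72 in CEF, against 3.08 in blastoderm, and was lower in PGC than in CEF (-2.51, adjusted p = 1.62e-05). Its call between PGC and GSC (-1.24, limma adjusted p = 0.0138) was lost under 3 settings, the minimum change of 2-fold aside. RARRES2, which encodes the chemokine chemerin, averaged 7.57 in PGC, 8.14 in GSC and 7.84 in CEF, against 4.27 in blastoderm, 3.30, 3.87 and 3.57 log2 units higher in PGC, GSC and CEF than in blastoderm. FGF8, a growth factor of the early embryo that retinoic acid is known to repress, and HOXB1, a gene that it induces in the hindbrain, were above background in blastoderm only by their brightest probe sets. FGF8 was at least 12.4-fold lower in PGC, GSC and CEF than in blastoderm, where it gave 6.80, 7.38 and 7.56, and HOXB1 was at least 4.25-fold lower in each, against 5.57, 5.77 and 5.76 in blastoderm. The 4 other HOXB1 probe sets lay within background on all arrays, and 1 of them repeated 1 of these calls, that of GSC below blastoderm. The other probe sets of TNFAIP2, FABP5, DHRS3 and STRA8, 1 each, were likewise within background on all arrays.

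**Figure D4:**
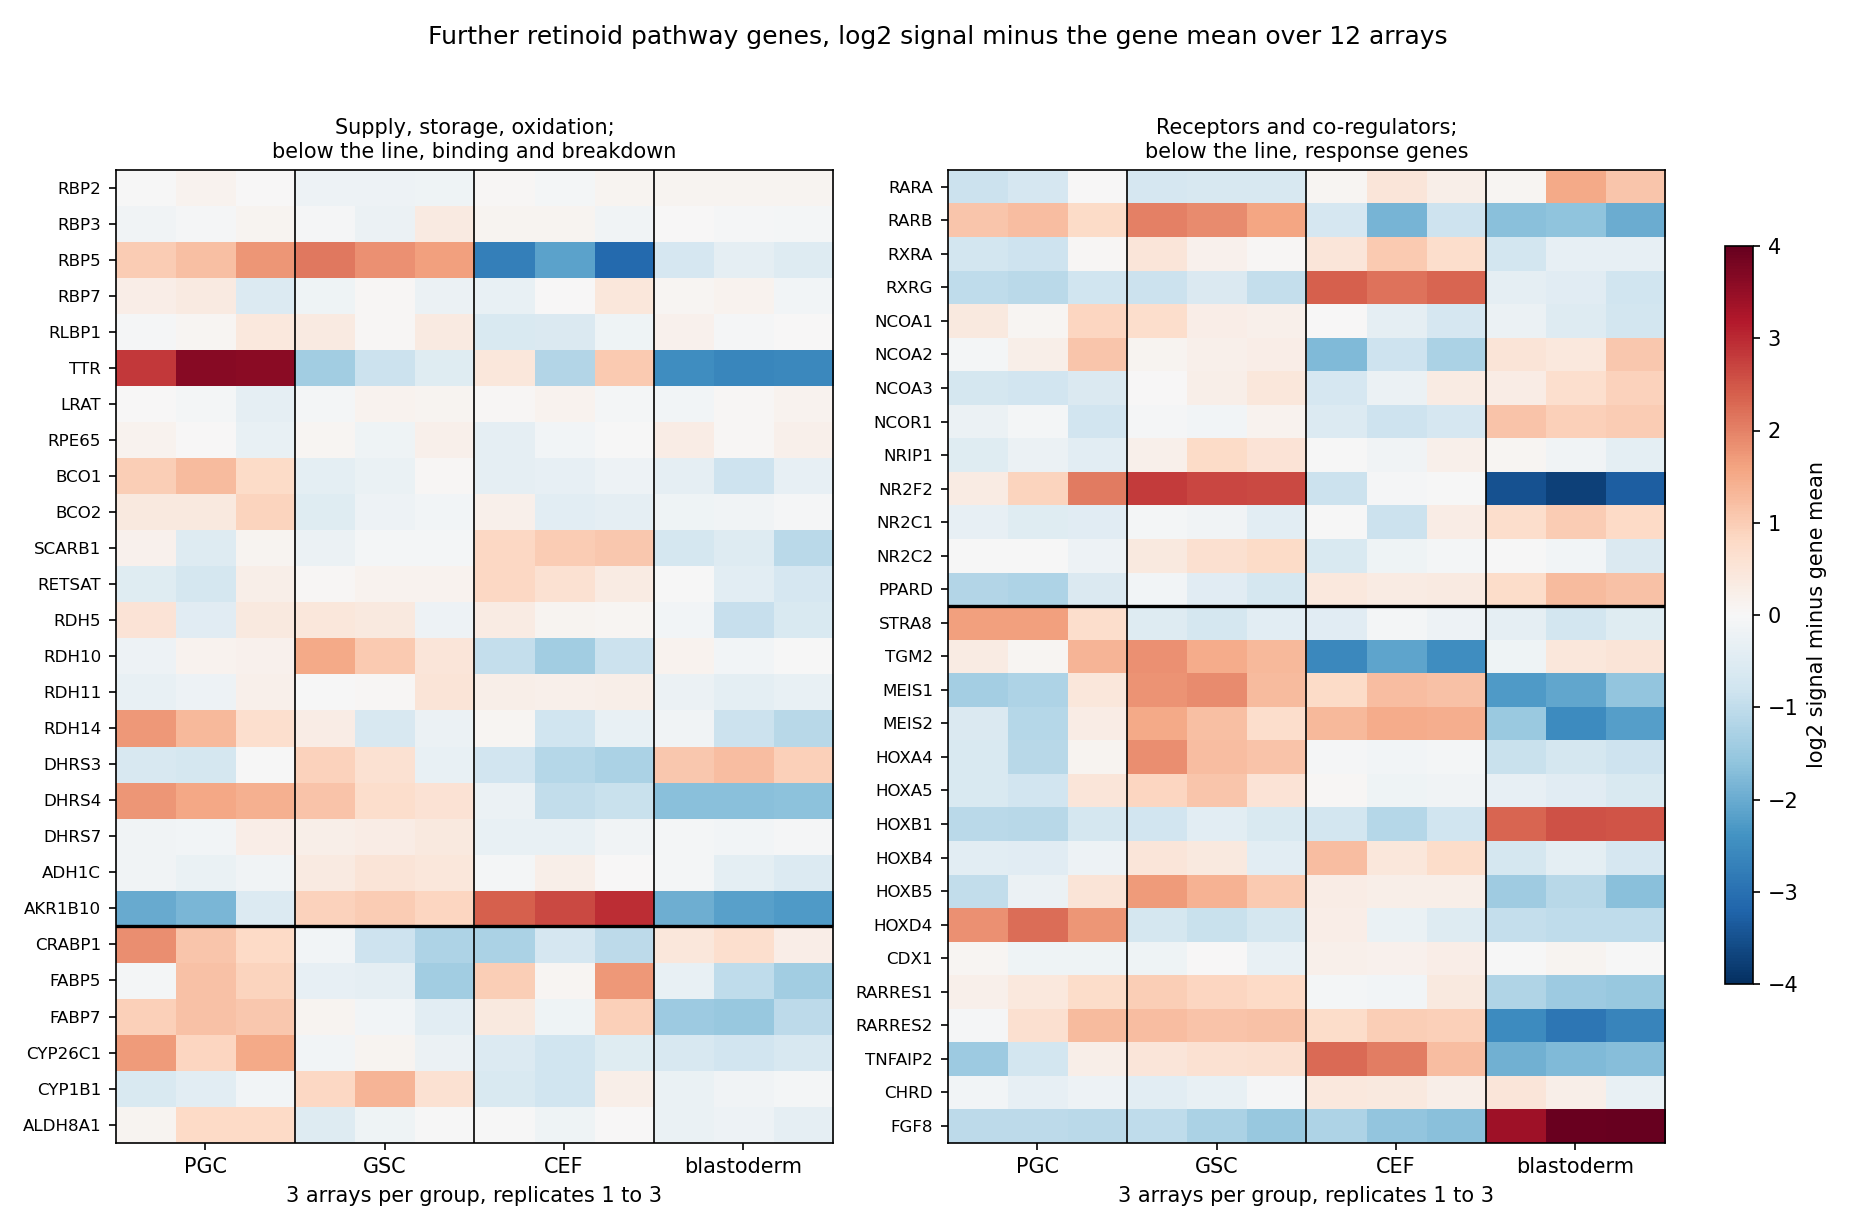
Log2 signal minus the gene's mean over 12 arrays (colour, with the scale ending at -4 and 4) for the 56 measured pathway genes (rows) in the 3 arrays of PGC, GSC, CEF and blastoderm (columns). TTR stands out in PGC, RBP5 and RARB in both gonadal groups, RXRG in CEF, and FGF8 and HOXB1 in blastoderm, where the highest FGF8 value lies past the end of the scale.

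The genes whose profile over the 12 arrays was most like each of the 7 were sought among 6820 named genes above background whose group means spanned at least 1 log2 unit. These are descriptions by Pearson correlation over 12 arrays that fall into 4 groups, so a shared order of group means is enough for a high value. For ALDH1A2 the closest were BRE at 0.998, LOC422926 at 0.997 and ABLIM1 at 0.996, and for CYP26A1 they were NFYC at 0.994, BRINP1 at 0.989 and FAM84B at 0.987. ALDH1A1 was closest to PNAT10 at 0.975, CYP2AC1 at 0.972 and SLC22A16 at 0.968. Of these, PNAT10 averaged 10.25 in PGC, 6.38 in GSC and 2.93 in CEF, against 2.71 in blastoderm, the same descent as ALDH1A1. ALDH1A3 was closest to GNB5 at 0.990, STRA6 to OSTN at 0.975, and CYP26B1 to TXNL4A at 0.973. Among the 7 genes themselves, the brightest probe set of ALDH1A2 correlated at 0.961 with CYP26A1, 0.947 with STRA6, 0.897 with ALDH1A3 and 0.820 with ALDH1A1, and at 0.363 with CYP26B1. The correlations of CYP26B1 were the lowest among the 6 genes above background, down to 0.015 with ALDH1A3 and 0.148 with ALDH1A1.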

How the data were processed

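The authors deposited 1 table of 38535 probe sets by 12 arrays. The deposited values are log2 signals from 1.02 to 13.18, as read from the values; per the submitters' processing notes MAS5 was used, with no version or role, and the route to the log2 scale is not given. They were used without further scaling. Manufacturer control probe sets (96) and viral or reporter probe sets (746) were left out, which left 37693, of which 27166 had 1 gene symbol, 177 several and 10350 none. All 7 gene identifiers were found in the RefSeq gene table.

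The 4 groups entered 1 two-sided limma fit (limma 3.58.1, R 4.3.3; lmFit, then eBayes with an intensity trend; 8 residual degrees of freedom), with Benjamini-Hochberg adjustment over 37693 probe sets per comparison and a threshold of 0.05. The standard error of a difference is that of this fit. Where the lower group was at or below 3.61 on every array, the fold is the higher group's mean over that level. The adjusted p given with it still tests the measured difference. The design describes the 3 samples of a group as independent, and 3 arrays per group limit the precision. Replicate numbers were checked for pairing: deviations of arrays with the same number correlated at -0.14 to 0.18, so the fit was not paired. Pathway genes named are, per comparison, up to 3 called genes in each direction with the largest difference, plus RARA, RARB, RARG, RXRA, RXRG, RDH10, DHRS3, LRAT, CRABP1, CYP26C1 and STRA8; RARG had no probe set with that symbol, and 1 further gene on the rule's fixed list is not reported here. The genes, lists and rules were chosen with earlier results of these data known. The alternatives were quantile normalization, median centring, offsets of 16 and 64 on linear signals, a low-value filter, no trend, a robust prior, array weights, a replicate block, a minimum change of 2-fold, only the 2 groups compared, the mean of a gene's probe sets, and each array left out. For the count of group means above background, the alternative was a background of 2.80. The fit was tested on simulated data. No coordinates or sequences are given. Tables and plots used Python 3.11.15 with pandas 2.3.3 and matplotlib 3.10.9.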

Additional observations from a re-analysis of the deposited data

How the results depend on the processing

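Of the results for the 10 probe sets under the alternatives, 1318 counted as unchanged, 42 lost a call, 9 gained one and 0 of the called differences changed sign. Among the 1318 is 1 result without a test, the number of probe set and group pairs above background. It was 26 at a background of 3.61 and 29 at 2.80, within the 1.5 times allowed. The rise fell in CEF (from 4 to 6) and blastoderm (from 6 to 7), while PGC and GSC stayed at 8 each. The other unchanged results kept their side of the threshold. A minimum change of 2-fold moved the counts most: among the 10 probe sets it left 0 calls for PGC versus GSC (with 3 at an unadjusted p under 0.05 in the same limma test), 5 for PGC versus CEF, 5 for PGC versus blastoderm, 7 for GSC versus CEF, 6 for GSC versus blastoderm and 2 for CEF versus blastoderm. Among the 56 pathway genes it left 5 for PGC versus GSC, 11 for PGC versus CEF, 14 for PGC versus blastoderm, 6 for GSC versus CEF, 14 for GSC versus blastoderm and 17 for CEF versus blastoderm. Offsets of 16 and 64 each left 2 of the 6 calls between CEF and blastoderm, those of CYP26B1; adjusted p rose to 0.0564 and 0.275 for the brightest ALDH1A2 probe set, 0.136 and 0.511 for the second, 0.102 and 0.317 for ALDH1A3 and 0.143 and 0.583 for CYP26A1. They gave CYP26B1 by its dimmer probe set 0.0792 and 0.202 for GSC versus CEF, and STRA6 0.0483 and 0.0482 for PGC versus GSC. With array weights CYP26A1 (-0.83, adjusted p = 0.0163) and STRA6 (-1.59, adjusted p = 0.000102) were lower in PGC than in GSC, STRA6 also under the low-value filter (0.0467) and without CEF replicate 1 (0.0424); with only CEF and blastoderm in the fit, ALDH1A1 was called (0.00155) though within background in both. The cause was not tested. Leaving out 1 array left 5 to 6 calls among the 10 probe sets for PGC versus GSC and 21 to 33 among the pathway genes. The replicate block lost 0 and gained 0 of the 45 calls and left 5 calls for PGC versus GSC. No pairing by replicate number was seen, and pairing under other numbers was not tested. The signal over background limits RBP4, LRAT, the third ALDH1A2 probe set and every gene within background in CEF or blastoderm.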
